A study of Apostichopus japonicus with 9 samples.

Results

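Small RNAs of the sea cucumber *Apostichopus japonicus* were compared between severe hypoxia and normoxia, as 3 libraries from animals held with 2 mg/L of dissolved oxygen (DO2) against 3 from animals held with 8 mg/L (DO8). The members are the miRNA entries listed above 0 in all 3 libraries of DO2 or in all 3 of DO8, joined over the per-library tables by name and sequence, and they number 84 of the 475 entries of the series. Of these, 80 carry a miRNA family name and 4 are predicted miRNAs, 65 were listed in all 6 libraries, 6 qualified only through DO2 and 13 only through DO8. Together they held over 99.8% of the deposited values in every one of the 6 libraries. By the study's methods the respiratory trees of 3 animals were pooled in each library after 3 days of exposure, while the sample labels speak of an individual tree. The libraries are called pools here, and p-values measure the spread between such libraries of animals kept alike, whichever account holds. A further group at 4 mg/L (DO4, 3 libraries) entered the fits to estimate the spread, and 6 of the 90 entries tested qualified only through it. Fewer cells of a type and less RNA per cell cannot be told apart in such pools.

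The respiratory tree is the branched sac through which a sea cucumber draws water in and out by muscular pumping, and it is the main site of gas exchange. Mature miRNAs are short RNAs cut from hairpin precursors. They pair with messenger RNAs mainly through bases 2 to 8, the seed, and lower their translation or stability, so miRNAs with the same seed form a family. In vertebrates, low oxygen raises miR-210 through the hypoxia-inducible factor HIF-1.

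The deposited value is the authors' scaled signal. The sum of values in a library was 2075912, 2029412 and 2118834 in DO2 and 3420135, 3037641 and 2718922 in DO8, with no overlap (p = 0.1 by an exact two-sided permutation test, which cannot go lower with 3 pools against 3). Changes are therefore given on the deposited values and as the share of the library's miRNA total, in ppm or percent. Values in a sentence follow the order of pools 1, 2 and 3, and a change is the difference of mean log2(value + 1), DO2 minus DO8, ± SE. The median change of all 90 entries tested was -0.03 on the deposited values and 0.51 as share, and that of the 84 members -0.16 and 0.39. The value of 1 read was worked out in DO2 from the read numbers that the names of predicted miRNAs end in, which 5 of 5, 49 of 58 and 107 of 145 names fitted. In DO8, with only 3, 4 and 8 predicted entries, it was taken as the largest common step of their values, so it is less certain there and may be smaller. It came to 6.18, 3.23 and 1.22 in DO2 and 0.598, 0.556 and 0.581 in DO8. This puts the miRNA reads at 335658, 628808 and 1740914 in DO2 and at 5720697, 5464012 and 4681523 in DO8. These read numbers are estimates, and the study reports a higher miRNA read count for each of these libraries. The smallest value listed was accordingly 12.4, 6.45 and 3.04 in the DO2 pools and 0.741 to 0.797 in the DO8 pools. An entry at a low level could thus be listed in DO8 and not in DO2 at the same abundance.

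The 5 entries with the largest changes were miR-6236 and miR-6240 forms, which with a further form lie on 2 stretches of sequence. They are shown because their letters run into each other: the last 10 bases of Aja-miR-6236-3p are the first 10 of Aja-miR-6236-5p, whose last 11 are the first 11 of Aja-miR-6236, and the miR-6240 entries are the same run shifted or shortened by 1 base. Capitals mark the seed here and in all sequences.
Aja-miR-6236-3p: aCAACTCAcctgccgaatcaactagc
Aja-miR-6236-5p: aTCAACTAgccctgaaaatga
Aja-miR-6236: cCTGAAAAtgaatggcgc
Aja-miR-6240-3p: aATGTGATttctgcccagtgc
Aja-miR-6240-5p: aTGTGATTtctgcccagtgct
Aja-miR-6240: aTGTGATTtctgcccagtgc

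The next set joins entries of the same family where a short form stands beside a longer one, or where forms differ inside the molecule. Aja-miR-1 is the first 18 bases of Aja-miR-1a-3p, Aja-miR-133 the first 20 of Aja-miR-133-3p and Aja-miR-200 the first 18 of Aja-miR-200-3p. Aja-miR-125-5p is Aja-miR-125 from base 4 on and so has another seed. Aja-miR-235a is the first 19 bases of Aja-miR-92d, and both differ from Aja-miR-92a, with the same seed, by G11T and C15T (positions from the 5′ end, the base of Aja-miR-92a first). Aja-miR-2008 and Aja-miR-2008-5p are named as the 2 arms of a hairpin.
Aja-miR-1a-3p: tGGAATGTaaagaagtatgtgt
Aja-miR-1: tGGAATGTaaagaagtat
Aja-miR-133-3p: tTTGGTCCccttcaaccagccgt
Aja-miR-133: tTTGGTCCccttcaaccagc
Aja-miR-200-3p: tAATACTGtctggtgatgatg
Aja-miR-200: tAATACTGtctggtgatg
Aja-miR-125: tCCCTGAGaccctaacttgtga
Aja-miR-125-5p: cTGAGACCctaacttgtga
Aja-miR-92a: tATTGCACttgtcccggcctat
Aja-miR-92d: tATTGCACttttcctggcct
Aja-miR-235a: tATTGCACttttcctggcc
Aja-miR-2008: tCAGCCTCgctgtcaatacga
Aja-miR-2008-5p: cGTATTAAcaatggggctgatg

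The last set holds other members that passed the test on both scales or had lower deposited values in DO2. Aja-miR-2478b-3p and Aja-miR-7977 end in CCA, as mature tRNAs do, which holds for 4 of the 84 members.
Aja-miR-137: tTATTGCTtgagaatacacgta
Aja-miR-153-3p: tTGCATAGtcacaaaagtgatt
Aja-miR-278-3p: tCGGTGGGactttcgttcgatt
First predicted miRNA: tGGCACGTgactttgttga
Second predicted miRNA: aAAGAAAGcctctaacagatcc
Aja-miR-10: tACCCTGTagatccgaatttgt
Aja-miR-71-5p: tGAAAGACatgggtagtgaga
Aja-miR-2013-3p: tGCAGCATgatgtagtggtgtt
Aja-miR-2478b-3p: aTCCCACTtctgacacca
Aja-miR-7977: tTCCCGGCcaacgcacca

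On the deposited values, 28 of the 84 members passed the test (limma, Benjamini-Hochberg adjusted p under 0.05 over the 90 entries tested), 21 higher and 7 lower in DO2. The background is 31.1% of all entries tested, 23.3% higher and 7.78% lower. As share, 30 members passed, 29 higher and 1 lower, against a background of 34.4%, 33.3% higher and 1.11% lower. The higher calls thus made up 75.0% of the calls on one scale and 96.7% on the other. On both scales they include the 6 members that qualified only through DO2. Of the 65 members listed in all 6 libraries, 15 were higher and 6 lower on the deposited values. As share, 23 of them were higher and none lower. Of the members, 21 were higher and 1 lower on both scales, 6 were lower on the deposited values only, 8 higher as share only, and 48 on neither. The 2 groups did not overlap for 27 members higher and 20 lower in DO2 on the deposited values, and for 38 and 9 as share. Over the 65 members listed in all 6 libraries these numbers were 21 and 14, and 32 and 5. The background is 52.2% of entries on each scale, 30% higher and 22.2% lower on the deposited values and 42.2% higher and 10% lower as share. The 6 members that qualified only through DO2 and the 13 only through DO8 are by that choice at 0 in some pool of the other group. They are counted among the 84 and are also described apart.

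**Figure D1:**
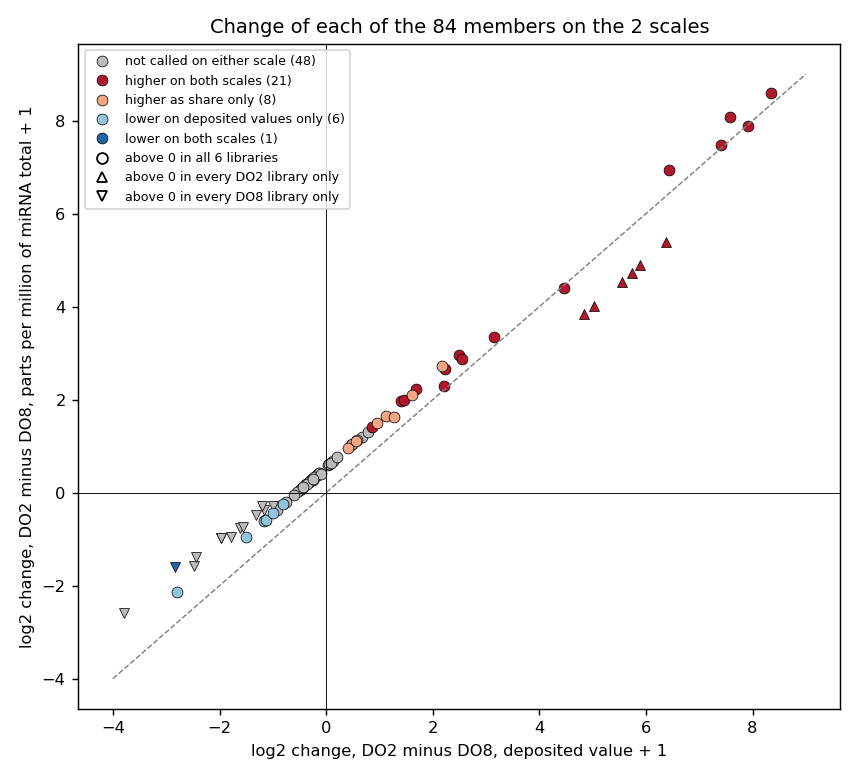
Change of each of the 84 members between DO2 and DO8 on the deposited values (horizontal, log2) and as ppm of the miRNA total (vertical, log2), coloured by the calls and shaped by the libraries in which the member was listed, with the line of equal change dashed. Members listed in all 6 libraries lie above or near the dashed line, and the 21 called higher on both scales reach from 0.85 to 8.35 on the deposited values.

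The direction of the calls is given here by abundance class. Of the 4 members with a mean deposited value of 100000 or more, 2 were lower and none higher, and of the 13 between 10000 and 100000, 2 were lower and 1 higher on the deposited values. Among the 13 between 1000 and 10000, 4 were higher and none lower, and among the 21 between 100 and 1000, 4 were higher and 1 lower. In the class of 10 to 100, 12 of 25 were higher and 1 lower, but all 6 members that qualified only through DO2 fall there, and of its 14 members listed in all 6 libraries 6 were higher and 1 lower. As share, over members listed in all 6 libraries, the higher calls in these 5 classes numbered 0, 1, 6, 8 and 8, with none lower. The 8 members under 10 qualified through DO8 alone. Over the members listed in all 6 libraries, the median change was 1.44 in the class of 10 to 100, -0.17, 0.12 and -0.32 in the next 3 classes and -0.54 in that of 100000 or more on the deposited values, and 1.86, 0.38, 0.67, 0.23 and 0.01 as share.

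**Figure D2:**
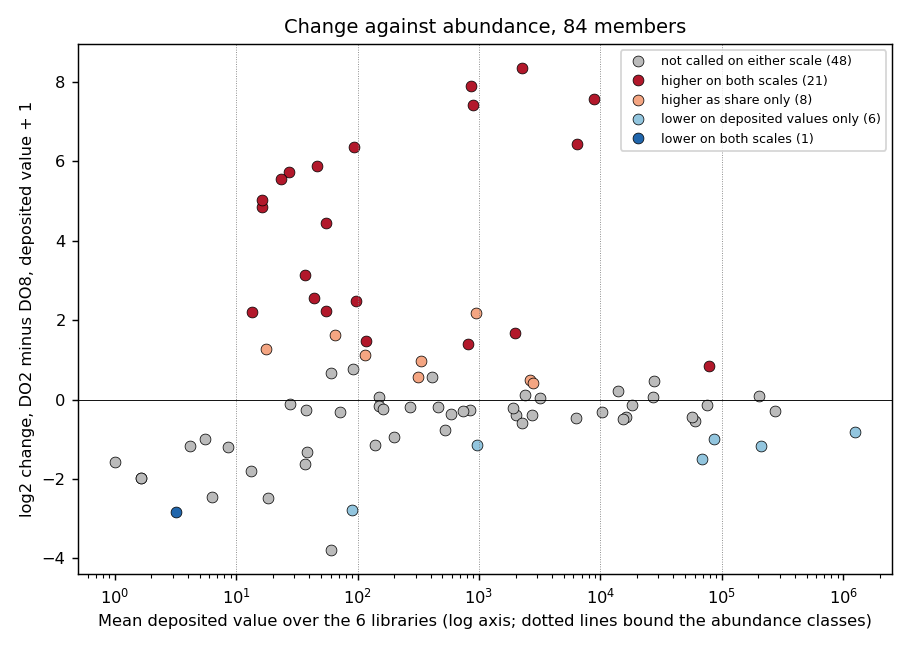
Change of each of the 84 members on the deposited values (vertical, log2) against its mean deposited value over the 6 libraries (horizontal, log axis), with the abundance classes bounded by dotted lines and colours for the calls. Members lower in DO2 are found mainly at the right, and 12 of the 21 higher on both scales lie between 10 and 100, the 6 that qualified only through DO2 among them.

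Aja-miR-10, whose gene lies within the Hox cluster in many animals, was the most abundant member and stood at 871306, 1021144 and 834008 in DO2 and 1950688, 1704707 and 1188885 in DO8. All 3 DO2 pools lay under all DO8 pools, with a change of -0.80 ± 0.23 (adjusted p = 0.025). As a percentage of the miRNA total it was 42.0, 50.3 and 39.4 in DO2 and 57.0, 56.1 and 43.7 in DO8, where the groups overlapped and the change of -0.25 ± 0.18 (adjusted p = 0.31) did not pass the test.

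Aja-miR-125, a homologue of lin-4, the first known regulator of developmental timing in *Caenorhabditis elegans*, stood at 111279.5, 116239.6 and 169172 in DO2 and 306856, 278240.4 and 291164 in DO8. Its mean was 2.21 times as high in DO8 as in DO2, with a change of -1.17 ± 0.23 (adjusted p = 0.0038). As share the groups also did not overlap, and the change was -0.61 ± 0.22 (adjusted p = 0.053), which did not pass the test. Aja-let-7-5p, a driver of the larval to adult switch in the same worm, had the second highest level, with 294937, 199035 and 257592 in DO2 and 358506, 244514 and 305845 in DO8. The groups overlapped and neither the change of -0.28 ± 0.28 (adjusted p = 0.48) on the deposited values nor that of 0.28 ± 0.25 (adjusted p = 0.45) as share passed. Over the list of Hox-linked and let-7 cluster families, 2 of 7 members were lower and none higher on the deposited values, and 1 higher and none lower as share. The medians were -0.38 and 0.17.

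Aja-miR-200-3p belongs to a family that marks epithelia in vertebrates and whose fly homologue is miR-8. It stood at 34581, 33253 and 39352 in DO2 and 78964, 106815 and 121729 in DO8. The highest DO2 pool lay well under the lowest DO8 pool, the mean was 2.87 times as high in DO8, and the change was -1.50 ± 0.30 (adjusted p = 0.0038). As share it remained lower in all 3 DO2 pools, at -0.95 ± 0.37 (adjusted p = 0.077). The other 3 members of the epithelial, ciliary and sensory list passed on neither scale, among them Aja-miR-34, which stood at 121, 216.2 and 94.9 in DO2 and 251.7, 253 and 272 in DO8 with no overlap on the deposited values and with overlap as share. The list's medians were -1.12 on the deposited values and -0.42 as share.

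Aja-miR-71-5p, of an invertebrate family lost in vertebrates that supports stress resistance and lifespan in *C. elegans*, stood at 43486, 63098 and 69684 in DO2 and 118225, 101207 and 126039 in DO8. Each DO2 pool lay under each DO8 pool on both scales. The change was -0.99 ± 0.28 (adjusted p = 0.022) on the deposited values and -0.44 ± 0.28 (adjusted p = 0.25) as share. Aja-miR-2013-3p, from a family of echinoderms and hemichordates, stood at 599.9, 681 and 538 in DO2 and 1365, 1253 and 1374 in DO8, again without overlap on either scale, with changes of -1.14 ± 0.25 (adjusted p = 0.0065) and -0.58 ± 0.29 (adjusted p = 0.15). The invertebrate list had 1 of 6 members higher, Aja-miR-278-3p, and 1 lower on the deposited values, and 1 higher as share, with medians of -0.42 and 0.11. The echinoderm and hemichordate list had 1 of 13 higher, Aja-miR-2008, and 1 lower on the deposited values, and 2 higher as share, with medians of -0.26 and 0.30.

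Aja-miR-2478b-3p stood at 37.1, 48.4 and 4.26 in DO2 and 123, 136 and 192.5 in DO8, with a change of -2.79 ± 0.90 (adjusted p = 0.04), and as share of -2.14 ± 0.89 (adjusted p = 0.096). Pool 3 of DO2 was lowest, and the groups did not overlap on the deposited values. With values under a common floor raised to it, the change was -2.34 and the call was lost (adjusted p = 0.058). Aja-miR-7977 was listed at 4.07 to 7.78 in DO8 and at 0 in DO2. All 3 of its DO8 values lie under the smallest value listed in pool 1 of DO2, so its call, on both scales, rests on a level that this pool could not show. The same common floor, 12.4, lies above all values of Aja-miR-7977, so that setting could show no difference for it.

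Together the 7 members lower on the deposited values held 51.1, 60.8 and 52.5% of the miRNA total in DO2 and 71.8, 72.2 and 63.6% in DO8, most of it Aja-miR-10. By the study's read counts, miRNA was a smaller and rRNA a larger part of the clean reads in every DO2 library than in any DO8 library. With the study's clean reads as library size, 52 members were lower and 12 higher, and the median change of all entries tested was -1.52. The 7 lower members fell on that scale by 0.98 to 3.79. The study's real-time PCR gave every miRNA it assayed as higher in DO2 than in DO8. Its assays of miR-10, miR-125, miR-200 and miR-71 thus went the opposite way to the deposited values. Without 1 library, the deposited call was lost for Aja-miR-10 (DO2_1, DO2_3, DO8_1 or DO8_2 left out), Aja-miR-71-5p (DO2_1, DO2_2, DO8_1 or DO8_3), Aja-miR-2478b-3p (DO2_3, DO4_3 or any DO8 pool) and Aja-miR-7977 (DO2_2, DO8_1 or DO8_2), with adjusted p between 0.050 and 0.114.

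**Figure D3:**
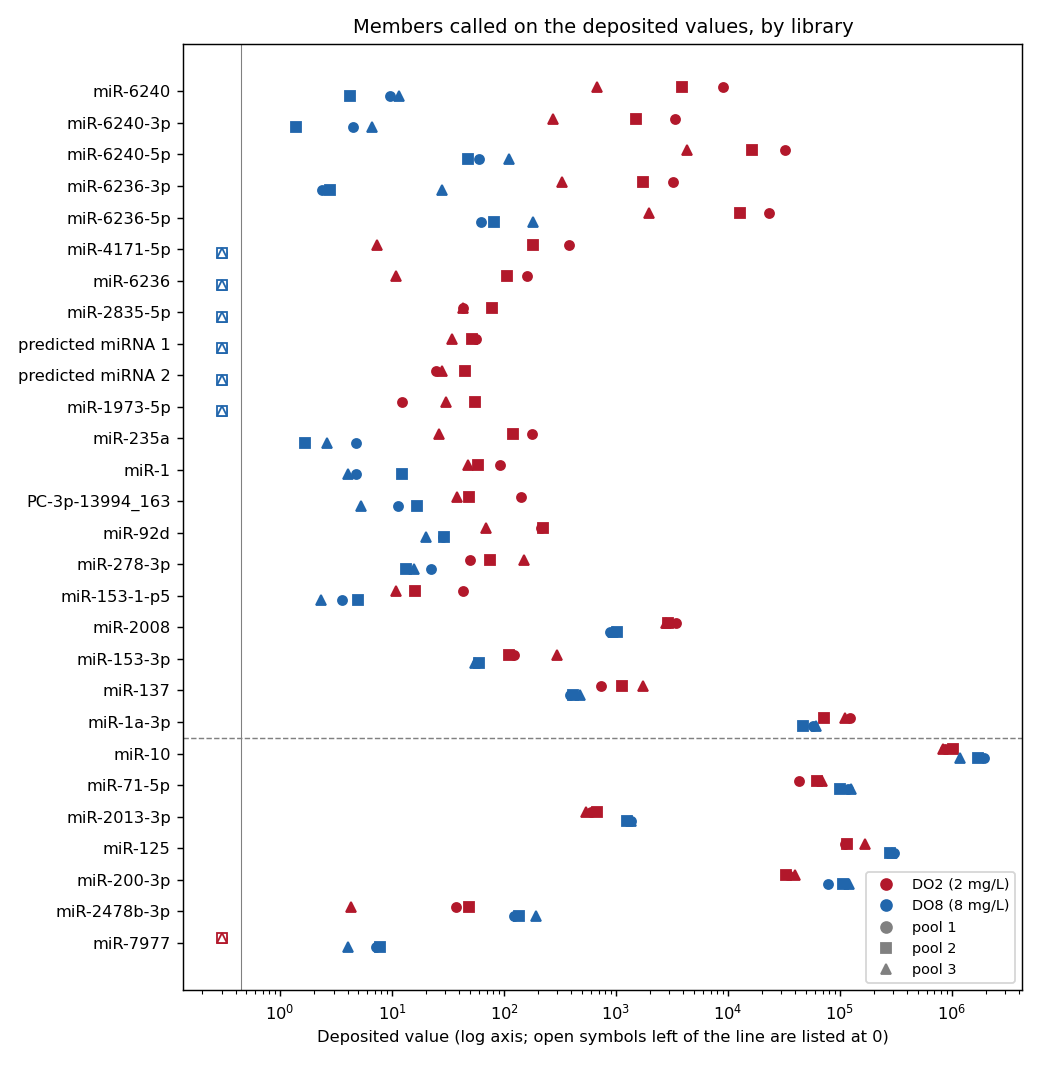
Deposited value (horizontal, log axis) in the 3 DO2 and 3 DO8 pools of each of the 28 members that passed the test on the deposited values, ordered by change, with 7 lower members under the dashed line and 21 higher members above it. Open symbols at the left stand for entries listed at 0, and the symbols give the pool number. The DO2 pools of the miR-6240 and miR-6236 entries spread over about an order of magnitude, with pool 1 highest and pool 3 lowest.

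Of the 6 miR-6240 and miR-6236 entries, 5 had the largest changes of all members. Both names come from mouse entries of miRBase. Aja-miR-6240-5p stood at 32324, 16268 and 4314 in DO2 and 59.5, 47.3 and 111 in DO8. Its lowest DO2 pool was far above its highest DO8 pool, the ratio of means was 243, and the change was 7.58 ± 0.68 (adjusted p = 2.4e-05) on the deposited values and 8.09 ± 0.70 (adjusted p = 1.6e-05) as share. Aja-miR-6236-5p stood at 23418, 12932 and 1972.9 in DO2 and 62.2, 81.2 and 180.0 in DO8, with changes of 6.43 ± 0.81 (adjusted p = 0.0002) and 6.95 ± 0.83 (adjusted p = 0.00012). Aja-miR-6240, 1 base shorter than Aja-miR-6240-5p, had the largest change on both scales, 8.35 ± 0.99 (adjusted p = 0.00017) and 8.59 ± 0.93 (adjusted p = 7e-05), from values of 9033, 3874 and 684 in DO2 and 9.57, 4.17 and 11.6 in DO8. Aja-miR-6240-3p and Aja-miR-6236-3p changed by 7.91 ± 1.07 and 7.42 ± 1.01 on the deposited values and by 7.89 and 7.48 as share. Aja-miR-6236 was listed at 161, 107 and 10.95 in DO2 and at 0 in DO8, where 3 reads would give 1.79 at most. Its deposited mean was thus at least 51.7-fold higher in DO2. Its change as share was 4.89, which depends on the 1 added to the 0 of DO8 and cannot be set beside that fold.

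In all 6 entries, pool 1 of DO2 was highest and pool 3 lowest. Their summed share of the miRNA total was 3.44, 1.80 and 0.358% in DO2 and 0.00404, 0.00450 and 0.0124% in DO8 (exact permutation p = 0.1, two-sided, the lowest possible). The worked-out miRNA reads rose in the opposite order over the DO2 pools, from 335658 to 1740914. The part of this depth in the result was not tested. The 6 entries were higher in DO2 under every scaling tried, clean reads included, where the changes ran from 1.62 to 5.44.

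**Figure D4:**
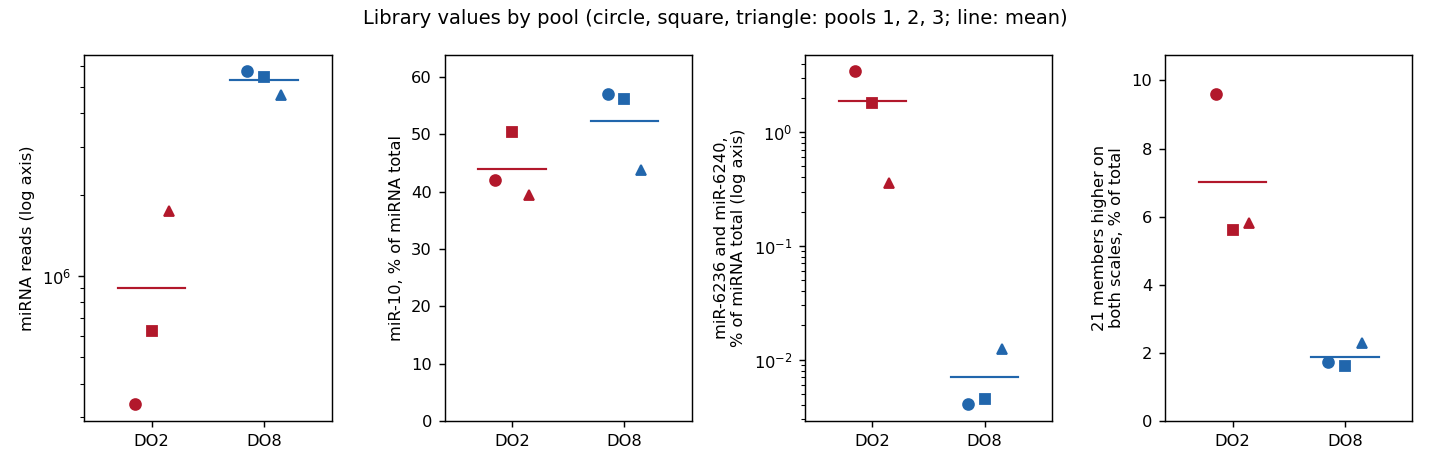
Values of the 3 DO2 and 3 DO8 pools, with the mean as a line, for the miRNA reads worked out from the values (log axis), Aja-miR-10, the summed miR-6236 and miR-6240 forms (log axis) and the 21 members higher on both scales, the last 3 in percent of the miRNA total. The DO2 pool with the fewest miRNA reads, pool 1, has the highest share of miR-6236 and miR-6240, and the order of the groups in the last panel was fixed by the choice of its members.

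The list of names that resemble fragments of rRNA, tRNA or snRNA held 15 members, of which 9 were higher and 2 lower on the deposited values, and 9 higher and 1 lower as share. Only 6 of the 15 were listed in all 6 libraries, 5 of them the miR-6236 and miR-6240 forms above. The others qualified through only DO2 or only DO8 and so were at 0 in some pool of the other group. No rRNA or tRNA sequence was compared here, and the list was drawn up with results of these data known, so its count is a description. Apart from the 6 entries above, its higher members were Aja-miR-4171-5p, Aja-miR-2835-5p and Aja-miR-1973-5p. All 3 were at 0 in DO8, and in DO2 Aja-miR-4171-5p stood at 377, 180.7 and 7.3, Aja-miR-2835-5p at 43.3, 77.5 and 42.6 and Aja-miR-1973-5p at 12.4, 54.9 and 30.4. Against the 3-read floor of 1.79 their means were at least 105, 30.4 and 18.2-fold higher. As share their changes were 5.39, 4.71 and 3.85, which depend on the 1 added to the 0 of DO8 and cannot be set beside these folds.

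The first and second predicted miRNAs complete the 6 members that qualified through DO2 alone. The first stood at 55.7, 51.6 and 34.1 in DO2, close together, and at 0 in DO8, at least 26.3-fold higher. The second stood at 24.7, 45.2 and 28.0 and at 0 in DO8, at least 18.2-fold higher. Both folds are of deposited values. As share the changes were 4.54 and 4.02, which depend on the 1 added to the 0 of DO8 and cannot be set beside these folds. In deposited values all 6 members were above the smallest value listed in DO8, 0.797, in every DO2 pool, the lowest being 7.30. In reads they were not all far from the floor. Aja-miR-1973-5p had 2 worked-out reads in pool 1 of DO2, the fewest listed in that pool. With low values raised to a common floor, the calls of Aja-miR-6236, Aja-miR-4171-5p and Aja-miR-1973-5p were lost (adjusted p = 0.11, 0.11 and 0.14) and those of the other 3 were not, which is no support for them, as all 6 qualified through the group in which they are high. Another predicted entry, PC-3p-13994_163, was listed in all 6 libraries with 142.2, 48.4 and 37.7 in DO2 and 11.4, 16.7 and 5.23 in DO8, and its changes were 2.55 ± 0.81 (adjusted p = 0.037) and 2.88 ± 0.71 (adjusted p = 0.01). It lost its deposited call without DO2_1, DO2_2 or any DO8 pool, and with clean reads, where its change was 0.28 (adjusted p = 0.60). Of the 4 predicted members, 3 were higher on both scales.

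Of the 5 muscle members, 2 were higher on the deposited values, 3 as share and none lower on either, with medians of 0.85 and 1.41, beside a background of 23.3% of entries higher on the deposited values and 33.3% as share. Aja-miR-1a-3p, whose family controls muscle differentiation from worms to mammals, stood at 122403, 72309.8 and 110416 in DO2 and 58034, 46931 and 60661 in DO8. All 3 DO2 pools exceeded all DO8 pools, by 1.84 times in the mean, with changes of 0.85 ± 0.24 (adjusted p = 0.022) on the deposited values and 1.41 ± 0.24 (adjusted p = 0.0011) as share. With clean reads as library size the sign turned, to -1.35 (adjusted p = 0.048), against the median of -1.52 on that scale. Its deposited call was also lost without DO2_1, DO2_3, DO8_1 or DO8_2 and with median-ratio factors (adjusted p = 0.051). The 18-base form Aja-miR-1 stood at 92.8, 58.1 and 47.5 in DO2 and 4.78, 12.2 and 4.07 in DO8 and changed by 3.15 ± 0.57 (adjusted p = 0.0025) and 3.35 ± 0.49 (adjusted p = 0.00048), and by 0.66 (adjusted p = 0.13) with clean reads.

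Aja-miR-133-3p, the partner of miR-1 in muscle, stood at 6584, 4929.9 and 4392 in DO2 and 5395, 7704 and 9043 in DO8. The groups overlapped and the changes of -0.47 ± 0.29 (adjusted p = 0.27) and 0.09 ± 0.34 (adjusted p = 0.83) did not pass. The 20-base form Aja-miR-133 stood at 145, 118 and 40.8 in DO2 and 22.4, 28.9 and 34.8 in DO8, without overlap, and passed as share only, with 2.09 ± 0.59 (adjusted p = 0.021) against 1.62 ± 0.60 (adjusted p = 0.062) on the deposited values.

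Of 8 nervous system members, 3 were higher on the deposited values, 5 as share and none lower on either, with medians of 0.76 and 1.31, beside the same background of 23.3 and 33.3%. Aja-miR-137, enriched in the vertebrate brain, stood at 742, 1129.6 and 1733 in DO2 and 388, 411 and 481 in DO8, without overlap, and changed by 1.41 ± 0.37 (adjusted p = 0.016) and 1.96 ± 0.39 (adjusted p = 0.0033). Aja-miR-153-3p, a regulator of synaptic proteins in vertebrates, stood at 123.7, 109.7 and 299 in DO2 and 56.8, 60.0 and 54.6 in DO8 and changed by 1.47 ± 0.49 (adjusted p = 0.045) and 1.98 ± 0.47 (adjusted p = 0.0088). Both deposited calls were lost without DO8_1 or DO8_2, that of Aja-miR-153-3p also without DO8_3, DO4_1 or DO4_3 and with median-ratio factors (adjusted p = 0.057), and both signs turned with clean reads, to -0.76 and -0.54. Aja-miR-153-1-p5, listed under the same family number with another sequence, stood at 43.3, 16.1 and 10.95 in DO2 and 3.59, 5.003 and 2.32 in DO8 and changed by 2.21 ± 0.61 (adjusted p = 0.022) and 2.30 ± 0.51 (adjusted p = 0.0061). Its deposited call was lost without DO8_1 or DO8_3 and with a common floor (adjusted p = 0.27). In worked-out reads it stood at 7, 5 and 9 in DO2 and 6, 9 and 4 in DO8. With clean reads as library size its change was 0.10 (adjusted p = 0.72).

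Aja-miR-7-5p, found in sensory and secretory neurons of flies and vertebrates, stood at 259.8, 478 and 615 in DO2 and 261, 219.6 and 179 in DO8. The groups overlapped on the deposited values, with 0.96 ± 0.45 (adjusted p = 0.13), and did not as share, with 1.51 ± 0.42 (adjusted p = 0.02). Aja-miR-9-3p likewise passed as share only, at 0.57 ± 0.36 (adjusted p = 0.27) and 1.11 ± 0.37 (adjusted p = 0.043), while Aja-miR-9-5p, the arm of the neurogenic miR-9 with the higher level in DO8, changed by -0.75 ± 0.44 (adjusted p = 0.22) and -0.20 ± 0.47 (adjusted p = 0.73). The neuronal Aja-miR-124 stood at 266, 313.1 and 189 in DO2 and 303, 337 and 222 in DO8, with overlap on both scales.

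Aja-miR-2008, of an echinoderm family that has been linked with skin ulceration in sea cucumbers, stood at 3463, 2905 and 2770.1 in DO2 and 883, 1021 and 943 in DO8. The lowest DO2 pool was more than 2 times the highest DO8 pool. The changes were 1.68 ± 0.36 (adjusted p = 0.0058) and 2.23 ± 0.42 (adjusted p = 0.0024), the call held without each single library, and the sign turned with clean reads, to -0.52 (adjusted p = 0.45). Its opposite arm, Aja-miR-2008-5p, stood at 55.7, 83.9 and 124.1 in DO2 and 152, 174 and 243 in DO8, with changes of -1.15 ± 0.53 (adjusted p = 0.13) and -0.59 ± 0.56 (adjusted p = 0.47) that did not pass. The list of families the study names for skin ulceration had 1 of 3 members higher on both scales, and Aja-miR-31a-5p stood at 9407, 8659 and 9358 in DO2 and 11571, 10537 and 12154 in DO8, with -0.32 ± 0.36 (adjusted p = 0.54) and 0.23 ± 0.42 (adjusted p = 0.69). Aja-miR-278-3p, whose fly homologue acts in insulin responsiveness of the fat body, stood at 49.5, 74.2 and 152 in DO2 and 22.1, 13.3 and 15.7 in DO8 and changed by 2.24 ± 0.68 (adjusted p = 0.031) and 2.65 ± 0.62 (adjusted p = 0.0082). It lost the deposited call without DO2_2, DO2_3 or any DO8 pool, and with clean reads, where its change was 0.22 (adjusted p = 0.75).

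Aja-miR-92a, related to the mammalian miR-17-92 cluster that promotes proliferation, had the fourth highest level, with 180101, 171471 and 273186 in DO2 and 159098, 180079 and 243038 in DO8, and changed by 0.09 ± 0.31 (adjusted p = 0.81) and 0.65 ± 0.31 (adjusted p = 0.13), with overlap on both scales. Of the 12 members of the miR-92 seed families, Aja-miR-92d and Aja-miR-235a were higher on both scales and the other 10 on neither. Aja-miR-92d stood at 213, 221 and 68.8 in DO2 and 28.7, 28.9 and 20.04 in DO8 and changed by 2.49 ± 0.57 (adjusted p = 0.0077) and 2.95 ± 0.55 (adjusted p = 0.0022). Its 19-base form Aja-miR-235a stood at 176, 121 and 26.2 in DO2 and 4.78, 1.67 and 2.61 in DO8 and changed by 4.45 ± 0.90 (adjusted p = 0.0038) and 4.41 ± 0.72 (adjusted p = 0.00098). Both signs held with clean reads, at 0.27 (adjusted p = 0.62) and 1.39 (adjusted p = 0.0021). Summed over the seed ATTGCAC, which 10 members share, the change was -0.00 ± 0.30 (adjusted p = 0.99) on the deposited values and 0.55 ± 0.29 (adjusted p = 0.17) as share.

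Of the 8 members higher as share only, Aja-miR-29a-3p and Aja-miR-29b-3p, which target collagens in vertebrates, stood at 3828, 2982 and 2384 in DO2 and 2209.7, 2290.5 and 1965 in DO8 and at 3228, 3392 and 2917 in DO2 and 2137, 2274 and 2790.1 in DO8, in that order. Neither overlapped between the groups on either scale, and their changes were 0.48 ± 0.27 (adjusted p = 0.21) and 0.41 ± 0.27 (adjusted p = 0.27) on the deposited values and 1.04 ± 0.29 (adjusted p = 0.02) and 0.97 ± 0.29 (adjusted p = 0.027) as share. Aja-miR-2002-3p, of an echinoderm family, stood at 2399.6, 1924 and 481 in DO2 and 349, 251 and 271 in DO8, with 2.18 ± 0.85 (adjusted p = 0.073) and 2.72 ± 0.88 (adjusted p = 0.037). The other 5 were Aja-miR-125-5p, Aja-miR-133, Aja-miR-184, Aja-miR-7-5p and Aja-miR-9-3p, with share changes from 1.11 to 2.09. With clean reads all 8 turned negative, from -1.78 to -0.03, and each lost its share call without 1 or more single libraries. The list of other conserved bilaterian families had 1 of 11 members higher on the deposited values, 4 as share and none lower, with medians of 0.41 and 0.97. Aja-miR-184-3p, its most abundant member and an eye and germline miRNA in vertebrates and flies, stood at 89136, 63438 and 63669 in DO2 and 95179, 68192 and 73397 in DO8, with -0.13 ± 0.31 (adjusted p = 0.74) and 0.42 ± 0.34 (adjusted p = 0.40).

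The vertebrate hypoxia families gave 3 members. Aja-miR-210-3p, the homologue of the miRNA that HIF-1 induces in vertebrates, stood at 328, 1117 and 599 in DO2 and 1163, 438 and 778 in DO8. The ranges overlapped widely, and the changes of -0.28 ± 0.62 (adjusted p = 0.73) and 0.27 ± 0.62 (adjusted p = 0.73) did not pass. The remaining 2 were the miR-200 entries, of which Aja-miR-200-3p was lower on the deposited values and neither passed as share. The list's medians were -0.28 and 0.27. The single digestive and secretory member, Aja-miR-375-3p, a miRNA of insulin-secreting cells in mammals, stood at 29077, 27935 and 38233 in DO2 and 18282, 33278 and 19262 in DO8 and changed by 0.47 ± 0.34 (adjusted p = 0.34) and 1.02 ± 0.39 (adjusted p = 0.07). Over the 36 members listed in all 6 libraries and called on neither scale, changes ran from -1.15 to 0.78 on the deposited values and from -0.59 to 1.31 as share.

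The 13 members that qualified through DO8 alone were all at 0 in pool 1 of DO2, 8 were at 0 in pool 2 and 4 in pool 3. For 7 of them every DO8 value lay under the smallest value pool 1 of DO2 listed, 12.4, and 4 were at 0 in all 3 DO2 pools. These 4, Aja-miR-2478d, Aja-miR-7977 and the miR-9341 entries, reached at most 7.78 in DO8, under the 3-read floors of 18.6 and 9.68 in pools 1 and 2 of DO2 though not in each case under the 3.65 of pool 3, so no fold is given. The 2 miR-9341 entries, nested in sequence, held identical values in every pool. Above the floor of 18.6 in every DO8 pool were 4 others. Of these, Aja-miR-133a-5p was listed at 0, 0 and 145 in DO2 and 56.2, 81.7 and 80.1 in DO8 and Aja-miR-2002a-3p at 0, 58.1 and 39.6 in DO2 and 49.0, 29.7 and 44.4 in DO8. Aja-miR-96-5p was listed at 0, 42.0 and 74.2 in DO2 and 29.3, 57.3 and 27.3 in DO8, so in these 3 a DO2 pool exceeded every DO8 pool. Aja-let-7a, which differs from Aja-let-7-5p by T18C, was listed at 0, 6.45 and 18.3 in DO2 and 34.1, 25.02 and 25.8 in DO8.

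Ratios between entries of a family within a library do not depend on the scale. Of 26 such ratios in 18 families, each to the most abundant entry of its family listed in all 6 libraries, 9 were higher in every DO2 pool than in any DO8 pool, 2 lower, and 15 overlapped. The smallest two-sided exact permutation p was 0.1 and the smallest adjusted p 0.24, so no ratio could pass. In the 8 ratios of a shorter to a longer entry that holds it, the change was positive in 7 and the groups did not overlap in 6. The 18-base Aja-miR-1 stood at 0.758, 0.803 and 0.43 per 1000 in DO2 and 0.0824, 0.261 and 0.067 per 1000 in DO8 of Aja-miR-1a-3p, a change of 2.50. The ratio of Aja-miR-133 to Aja-miR-133-3p was 22.1, 23.9 and 9.28 per 1000 in DO2 and 4.16, 3.75 and 3.85 per 1000 in DO8.

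These short forms were rarer than their long forms in every pool, by a wider margin in DO8. Aja-miR-200 to Aja-miR-200-3p gave 5.37, 3.3 and 1.58 per 1000 in DO2 and 0.81, 0.494 and 0.592 per 1000 in DO8, and Aja-miR-125-5p to Aja-miR-125 gave 2.22, 1.39 and 0.46 per 1000 in DO2 and 0.24, 0.21 and 0.231 per 1000 in DO8. In both, pool 1 of DO2 was highest and pool 3 lowest. The changes were 2.29 and 2.31. Aja-miR-92d to Aja-miR-92a changed by 2.44, and the ratio of Aja-miR-184 to Aja-miR-184-3p, which differ by G20T, was also higher in every DO2 pool.

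The ratios of arms of a hairpin did not all have 1 direction, and none passed a test. Aja-miR-2008-5p stood at 16.1, 28.9 and 44.8 per 1000 in DO2 and 172, 170.5 and 258 per 1000 in DO8 of Aja-miR-2008, the only ratio that was lower in DO2 by more than 1, with a change of -2.84. For Aja-miR-9-3p to Aja-miR-9-5p the ratio was 1526, 1039.6 and 605 per 1000 in DO2 and 394, 443 and 351 per 1000 in DO8, a change of 1.32. In DO8 and in pool 3 of DO2 the 5p arm was the more abundant, and in pools 1 and 2 of DO2 the 3p arm. The ratio of Aja-miR-2006-3p to Aja-miR-2006-5p changed by 0.24 and that of Aja-let-7b-3p to Aja-let-7-5p by -0.10, both with overlap.

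**Figure D5:**
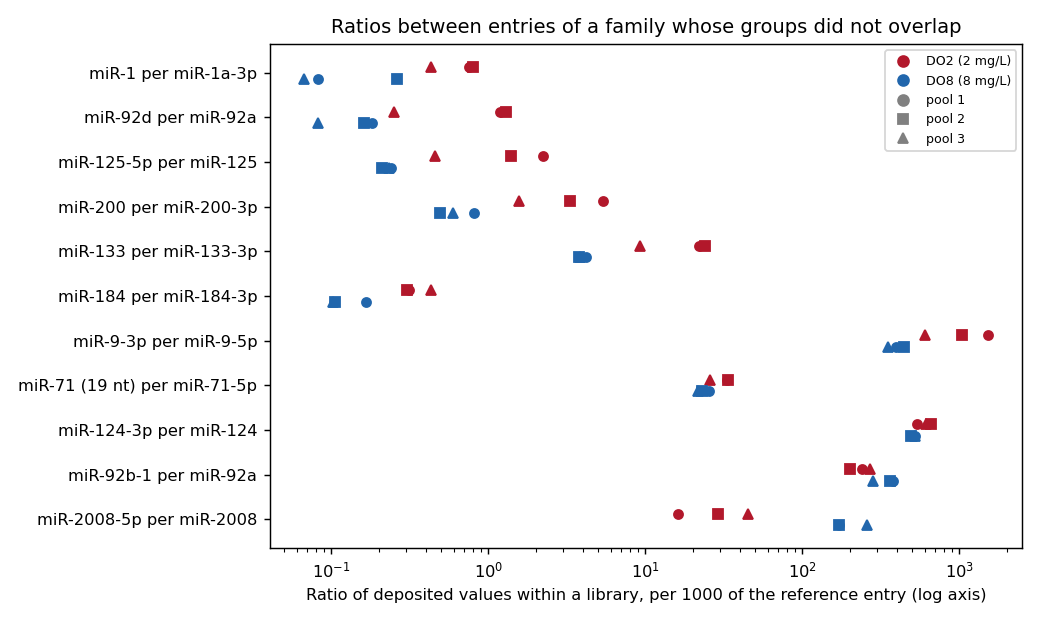
Ratio of deposited values within a library, per 1000 of the family's most abundant entry (horizontal, log axis), for the 11 ratios whose groups did not overlap, with 3 DO2 and 3 DO8 pools each. Red DO2 symbols lie to the right of blue DO8 symbols in 9 ratios and to the left in the other 2, miR-92b-1 and miR-2008-5p.

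Summed by seed, 67 families were tested. On the deposited values 18 were higher and 9 lower, a background of 40.3%, 26.9% higher and 13.4% lower, and as share 22 were higher and 3 lower, a background of 37.3%, 32.8% higher and 4.48% lower. The higher families include some at 0 in every DO8 pool, such as those of Aja-miR-2835-5p and Aja-miR-4171-5p, which qualified through DO2 alone. Of the 14 families with 2 or more members, 2 were higher on the deposited values, those of Aja-miR-1a-3p (0.86 ± 0.23, adjusted p = 0.017) and Aja-miR-6240-5p (7.71 ± 0.72, adjusted p = 2.2e-05), and 3 lower, those of Aja-miR-200-3p (-1.50 ± 0.30, adjusted p = 0.0032), Aja-miR-71-5p (-0.98 ± 0.28, adjusted p = 0.019) and Aja-miR-9341. As share, the families of Aja-miR-29b-3p (1.00 ± 0.25, adjusted p = 0.011) and Aja-miR-2002-3p (2.59 ± 0.85, adjusted p = 0.038) joined the first 2, and of the lower ones among these 14 only that of Aja-miR-9341, at 0 in DO2, passed. Without DO8_1 or DO8_2, 16 and 17 families were called on the deposited values.

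Length and first base were counted among the called members. Of the 21 higher on both scales, 10 were 18 to 20 nt long and 5 were 22 nt, against 12 and 22 of the 48 called on neither. They began with T in 11 of 21 cases, against 32 of 48. As members overlap in sequence, these counts are descriptions. Entries of 18 to 20 nt held 5.10, 3.71 and 3.30% of the miRNA total in DO2 and 2.95, 2.39 and 2.88% in DO8, and 4.65, 3.51 and 3.27% in DO2 without the miR-6240 entries. The order of pool 1 over pool 2 over pool 3 within DO2 held for 13 of the 21 higher members and for 23 of all 84.

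The tissue label was set against miRNAs of other cell types. No miRNA defines the respiratory tree. The 5 muscle entries, miR-1 and miR-133, summed to between 77416 and 129224 in the DO2 pools and between 54757 and 69823 in DO8, with 4 or 5 listed per pool. The miR-200 entries of epithelium summed to between 33363 and 39415 in DO2 and between 79028 and 121801 in DO8. The 7 neuronal entries, of miR-124, miR-9 and miR-153, summed to between 1174 and 1532 in DO2 and between 1187 and 1739 in DO8, a sum that leaves out Aja-miR-137 and Aja-miR-7-5p. As share they summed to between 566 and 755 ppm in DO2 and between 419 and 509 ppm in DO8, without overlap. For secretory cells, miR-375 ranged from 27935 to 38233 in DO2 and from 18282 to 33278 in DO8, and as share from 13765 to 18045 ppm and from 5346 to 10955 ppm, again without overlap. Entries named after vertebrate blood or liver miRNAs, 8 in all, summed to 8.07 to 99.2 in DO2 and 0 to 12.2 in DO8, and none is a member. The muscle sums were thus higher and the epithelial sums lower in every DO2 pool on the deposited values. As share the muscle sums ranged from 38147 to 62249 ppm in DO2 and from 18026 to 25680 ppm in DO8, and the epithelial sums from 16440 to 18602 ppm and from 23107 to 44798 ppm. The muscle sums were mostly Aja-miR-1a-3p. The miR-133 entries alone held 0.324, 0.249 and 0.216% of the miRNA total in DO2 and 0.160, 0.257 and 0.337% in DO8, with overlap. On the deposited values the neuronal sums and miR-375 overlapped between the groups as well. Only the muscle and epithelial sums moved with the groups on both scales, and the part of tissue composition in the other changes was not tested. Of the single libraries left out, DO8_1 moved the count most, and without it 18 members were called on the deposited values.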

How the data were processed

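The 9 small RNA libraries (3 per oxygen level) were sequenced on an Illumina instrument. The submitters' processing notes name CASAVA 1.5. The authors trimmed and filtered the reads, removed rRNA, tRNA, snRNA and snoRNA, aligned the rest to miRBase 21.0 with up to 2 mismatches and predicted further miRNAs with MIREAP. The deposited signal stepped like reads, some of them in fractions, times 1 factor per library, whose source is not given in the sources used here. Between 65.5 and 81.1% of values in a library were whole reads within 0.02 of a read, and the values are not counts, so no count test was used.

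The tables were joined by name and sequence. Entries above 0 in all 3 libraries of a group (90) were fitted as log2(value + 1) with limma 3.58.1 in R 4.3.3, trend-moderated variances, 1 mean per group, all 9 libraries. Calls were made below 0.05 after Benjamini-Hochberg adjustment over these entries. The ppm of the library's miRNA total and seed totals were fitted alike. Single values and ratios were compared by exact permutation tests (scipy 1.17.1). The fit was tested on simulated data. Named miRNAs are every member called on either scale, the 5 most abundant, both entries of a ratio without overlap and a change of at least 1, and the most abundant of each list. The members, lists, rule and tests were chosen with earlier results of these data known. Alternatives were other added values, filters, scalings, variance models, a common floor and each library left out.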

Additional observations from a re-analysis of the deposited data

How the results depend on the processing

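Counts of called members kept within 1.5 times of the main count under every other added value, filter, variance model and set of libraries, except those given here. With the study's clean reads as library size, 64 members were called on the deposited values (12 higher, 52 lower) in place of 28. Seed families called numbered 50 (12 higher, 38 lower) in place of 27. Of the 28 members called on the deposited values, 4 changed sign: Aja-miR-137 (-0.76), Aja-miR-153-3p (-0.54), Aja-miR-1a-3p (-1.35) and Aja-miR-2008 (-0.52). A further 5 lost the call without a change of sign: Aja-miR-1, Aja-miR-153-1-p5, Aja-miR-278-3p, Aja-miR-92d and PC-3p-13994_163. Of the 21 members higher on both scales, 12 stayed called higher. By the study's counts, the miRNA part of the clean reads was smaller in every DO2 library than in any DO8 library. The cause of the differences between the scales was not tested. With median-ratio factors, 26 were called (19 higher, 7 lower). Leaving out 1 library gave 18 to 32 called members on the deposited values (18 without DO8_1) and 21 to 35 as share, 16 to 28 seed families on the deposited values (16 without DO8_1, 17 without DO8_2) and 17 to 26 as share, 12 to 16 ratios without overlap, and a DO2 to DO8 ratio of the sums of values of 0.643 to 0.721. In these fits, 18 of the 28 deposited calls and 21 of the 30 share calls held without each single library. Over every setting tried on its own scale, 10 of the 28 deposited calls and 20 of the 30 share calls held. Clean reads, median-ratio factors and the common floor were tried on the deposited values only, so these counts cannot be compared. Among the losses, Aja-miR-235a was not called with 0.01 added (adjusted p = 0.13), Aja-miR-2013-3p with no filter (0.14), and Aja-miR-10, Aja-miR-1a-3p and Aja-miR-71-5p with no trend in the variances (0.061, 0.061 and 0.055). Pool numbers were not treated as pairs in the main fits. Same-numbered pools of DO2 and DO8 deviated with correlations of -0.16, -0.31 and -0.33 over 62 entries, and each correlated better with another number. Deviations from a group mean cancel within the group, so a negative correlation forces a positive one with another number. These correlations therefore cannot decide whether the numbers pair pools. With the replicate block, 26 members were called on the deposited values (19 higher, 7 lower) and 30 as share (27 higher, 3 lower), and 25 and 27 seed families. The 6 libraries of DO2 and DO8 alone gave 32 and 34 calls. The worked-out depths of DO2, 335658 to 1740914 miRNA reads, are lower than the study's own counts. Levels under the smallest listed values of 12.4, 6.45 and 3.04 could not be shown in DO2.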

Other observations

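The 391 entries outside the members were listed unevenly. In at least 1 DO2 library and no DO8 library there were 260, of which 238 were predicted miRNAs and 26 were listed in exactly 2 DO2 libraries. In at least 1 DO8 library and no DO2 library there were 32, in both groups 12, and 87 were listed only in DO4. The predicted entries listed numbered 11, 85 and 179 in the DO2 pools and 3, 4 and 8 in the DO8 pools, and held 0.0265, 0.0798 and 0.166% of the miRNA total in DO2 and 0.00101, 0.00101 and 0.00158% in DO8. The entries with a family name listed numbered 73, 79 and 99 in DO2 and 84, 96 and 93 in DO8.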
